A study of Mus musculus with 43 samples.

Results

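Expression of 8 genes of fatty acid oxidation and ketogenesis was examined in skeletal muscle, liver, brain and white adipose tissue (WAT, inguinal) of mice with or without the Irs1 gene, fed ad libitum (AL) or kept under dietary restriction (DR). The genes, Ppara, Cpt1a, Cpt1b, Ehhadh, Acot1, Fgf21, Pdk4 and Angptl4, were taken by name from a table of 42349 gene entries. All 8 were found, 7 in an entry of their own, whereas Cpt1b lay in an entry that joins it with its neighbour Chkb, which encodes choline kinase beta, so that the level of Cpt1b cannot be separated from that of Chkb.

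The 43 poly(A) RNA libraries came from female mice of 15 months of age. WTAL mice (Irs1+/+, AL) gave 2 libraries per tissue, and KOAL (Irs1-/-, AL) and KODR (Irs1-/-, DR) mice gave 3. WTDR mice (Irs1+/+, DR) gave 3, except in WAT, where the labels list 2. The deletion of Irs1, insulin receptor substrate 1, was global, and DR began at 10 weeks of age and was held at 30% for 12 months. DR mice were given their food in the late afternoon, and the time of day at which tissues were taken is not given in the sources used here. Each tissue and group had 1 deposited value per gene, an FPKM (a level corrected for transcript length and library size) estimated from all libraries of the group, with a 95% interval. Differences between groups were tested on these intervals, and since an exact test over libraries could not be made, calls at an FDR of 10% are given with the log2 ratio and its SE or interval, and no p-value is printed. Values per library were not used here and the depth of the libraries is unknown.

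The level of Irs1 itself was not lower in most groups labelled KO. In liver its FPKM was 4.70 in WTAL, 3.29 in WTDR, 5.95 in KOAL and 4.75 in KODR, and in skeletal muscle it lay between 5.48 and 6.31 in the 4 groups. In brain it was 2.47, 1.62, 3.49 and 4.14 in the same order, and KODR was called higher than WTDR (log2 1.35, SE 0.40). In WAT it was 2.47, 6.56, 5.37 and 2.58, so that KODR was below WTDR there (log2 -1.35, SE 0.55, not called). Genotypes are therefore given as labelled throughout. The values do not check the deletion, because the deleted stretch is not known here. Markers of each tissue were abundant in the tissue named: 10 liver markers summed to between 71781 and 162918 FPKM in liver, 10 skeletal muscle markers to between 146293 and 231175 in muscle, 8 adipocyte markers to between 16453 and 28665 in WAT and 8 brain markers to between 3440 and 6596 in brain. Red blood cell markers moved with the labelled genotype in liver, muscle and brain. In liver 5 of them summed to 2681 FPKM in WTAL, 3469 in WTDR, 13569 in KOAL and 12047 in KODR. In the same order the sums were 950, 1553, 11582 and 20283 in muscle and 1032, 971, 9907 and 3475 in brain. In WAT they were 6863, 12269, 4297 and 21030, so that KOAL was the lowest there.

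PPAR alpha, the product of Ppara, is a nuclear receptor that is activated by fatty acids and, paired with the retinoid X receptor, turns on genes for fatty acid breakdown, above all in the fasting liver. Fatty acids enter mitochondria through carnitine palmitoyltransferase 1 (CPT1) and are shortened there and in peroxisomes to acetyl-CoA, from which the liver makes ketone bodies. Fgf21 and Angptl4 encode secreted proteins that rise in fasting, and Pdk4 encodes a kinase that shuts off pyruvate dehydrogenase and so spares glucose. Apart from Ppara, each member is a known PPAR alpha target in liver or muscle.

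The promoters of Fgf21 and Ehhadh are shown because these were the members whose level differed between groups at an FDR of 10%. The sequences, 250 bases before and 50 after the RefSeq start of transcription in GRCm38.p6, read 5′ to 3′ along the gene's strand. The first or only run in capitals is the 13-base stretch closest to the PPAR response element AGGTCANAGGTCA (the first of those equally close), and the second run in Fgf21 is an E-box, CACGTG, the element bound by clock and other basic helix-loop-helix proteins.
Fgf21, chr7:45615441-45615740, minus strand: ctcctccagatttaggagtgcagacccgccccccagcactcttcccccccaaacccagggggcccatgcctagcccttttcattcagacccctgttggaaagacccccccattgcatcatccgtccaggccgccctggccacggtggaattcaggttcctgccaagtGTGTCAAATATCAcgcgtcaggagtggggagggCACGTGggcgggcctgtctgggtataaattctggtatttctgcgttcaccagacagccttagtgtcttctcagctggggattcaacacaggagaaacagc
Ehhadh, chr16:21787785-21788084, minus strand: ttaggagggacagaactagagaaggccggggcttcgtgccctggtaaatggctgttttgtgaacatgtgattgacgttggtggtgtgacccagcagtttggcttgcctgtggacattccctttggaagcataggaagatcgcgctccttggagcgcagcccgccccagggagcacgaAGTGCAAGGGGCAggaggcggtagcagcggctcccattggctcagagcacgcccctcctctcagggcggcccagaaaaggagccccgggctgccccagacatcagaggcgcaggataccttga

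Promoters were at hand for 6 of the 8 genes, Ppara, Cpt1a, Ehhadh, Acot1, Fgf21 and Pdk4. On either strand, the closest stretch in each of the 6 matched 8 of the 12 fixed letters of the response element, and 79.8% of 32851 promoters of the same length held a stretch at least as close. A complete copy of the 6-letter core AGGTCA was found in the promoter of Cpt1a, starting 94 bases before the start of transcription, and in none of the other 5, while 16.3% of all promoters held it. The E-box of Fgf21 began 50 bases before the start, and 7.15% of all promoters held an E-box. These matches describe the letters of these windows alone.

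Across the 16 groups the members fell into liver genes and muscle or fat genes. Ppara, Cpt1a, Ehhadh, Acot1 and Fgf21 had their 4 highest FPKM in the 4 liver groups. Pdk4 and the joined Chkb and Cpt1b entry had theirs in the 4 skeletal muscle groups, and Angptl4 was highest in WAT of WTAL mice, followed by liver of KOAL mice. In WTAL mice 33 of 45 tests of a member between pairs of tissues passed an FDR of 10%, whereas 23.2% of all entries tested did. The test was a two-sided Wald test on the log2 ratio of FPKM, with Benjamini-Hochberg adjustment over all entries.

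**Figure D1:**
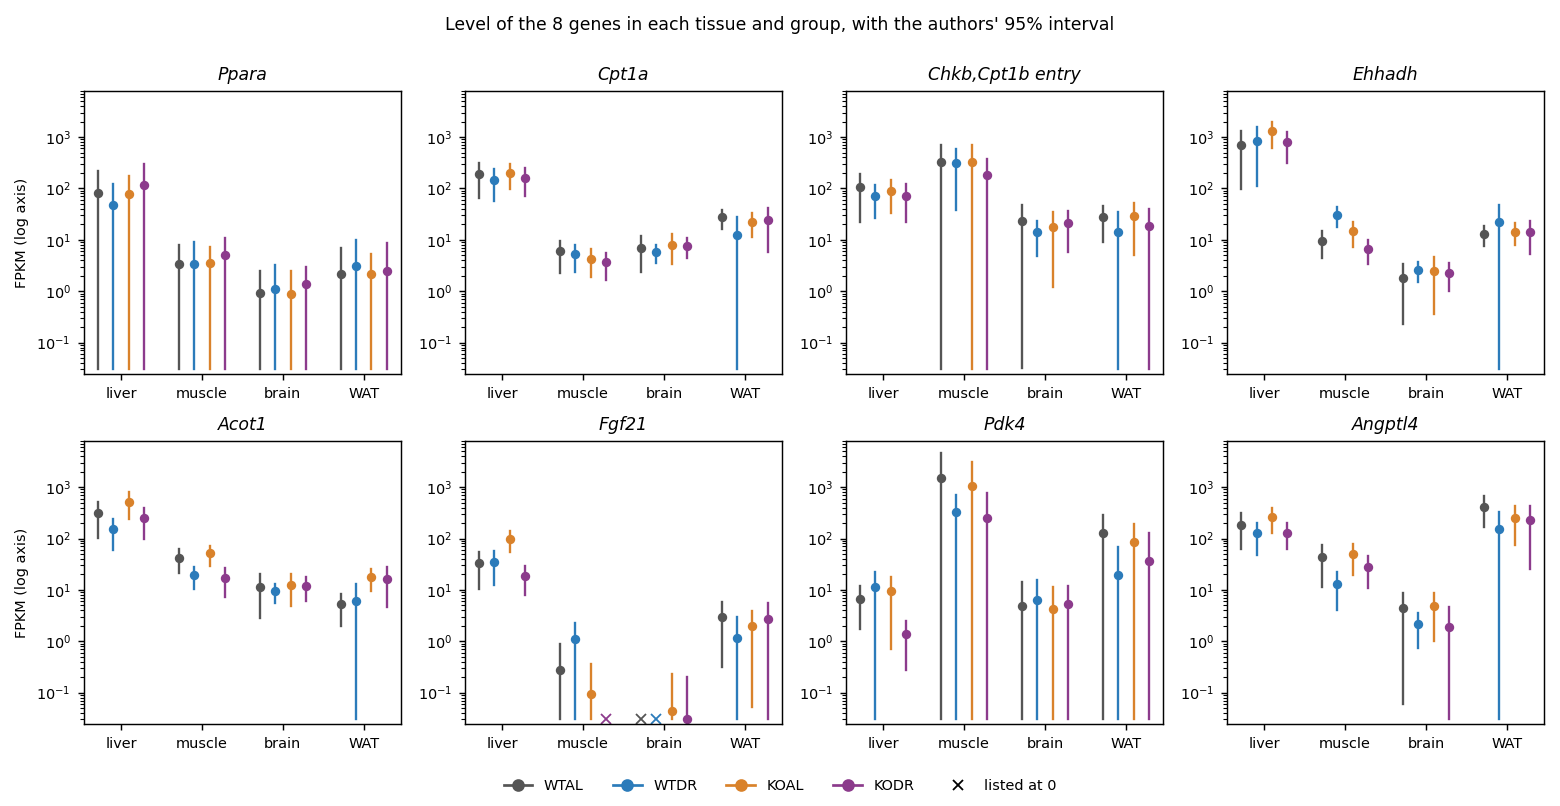
FPKM on a log axis of the 8 genes in the 4 groups of each tissue. Points are the authors' group values and bars their 95% intervals, drawn to the foot of the panel where the lower bound is under 0.03; a cross marks a group listed at 0. The first 2 genes, Ehhadh, Acot1 and Fgf21 are highest in liver, Pdk4 and the joined entry in muscle, and the bars of Ppara reach 0 in all 16 groups.

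Ppara, on chromosome 15 (GRCm38, 85734983 to 85802819), encodes the receptor described above. Its liver FPKM was 80.9 in WTAL, 48.0 in WTDR, 77.1 in KOAL and 114 in KODR. All 4 lay above every value of the other tissues, the highest of which was 5.04 in muscle of KODR mice. The lower bound was 0 in all 16 groups and the SD was a median 80.0% of the FPKM, so that no difference of Ppara between diets or genotypes could be shown. The largest of them, KODR against WTDR in liver, was a log2 ratio of 1.25 with a 95% interval from -1.81 to 4.32.

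Cpt1a, on chromosome 19 (3323301 to 3385732), encodes the liver form of CPT1, which passes long-chain fatty acids into mitochondria. Liver held an FPKM of 187 in WTAL, 147 in WTDR, 201 in KOAL and 158 in KODR, WAT between 12.5 and 27.4, and muscle and brain between 3.62 and 8.09. It was among the most precisely measured members, and its liver ratio between KODR and KOAL, a log2 of -0.34 (SE 0.54), had an interval from -1.40 to 0.72. None of its 20 differences between diets or genotypes had an unadjusted p under 0.05.

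The joined Chkb and Cpt1b entry (chromosome 15, 89416405 to 89430868) holds the muscle form of CPT1. Its FPKM in muscle was 326 in WTAL, 310 in WTDR, 326 in KOAL and 180 in KODR, and in liver between 70.8 and 107. The 4 muscle intervals overlapped, and 3 of them reached 0. The share that belongs to Cpt1b is open in every tissue, since 92.9% of the 54-base stretches of the Cpt1b transcript also occur in Gm44502, an overlapping gene of the GENCODE annotation.

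Ehhadh, on chromosome 16 (21761287 to 21787844), encodes the peroxisomal bifunctional enzyme, which carries out the middle steps of peroxisomal beta-oxidation. It was the most abundant member in liver, with an FPKM of 712 in WTAL, 851 in WTDR, 1300 in KOAL and 794 in KODR, and these 4 intervals overlapped. In skeletal muscle it was 9.53 in WTAL (95% interval 4.35 to 14.7), 30.4 in WTDR (17.8 to 43.0), 14.6 in KOAL (7.38 to 21.9) and 6.66 in KODR (3.30 to 10.0). The interval of WTDR muscle lay above those of WTAL and KODR and overlapped that of KOAL.

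Ehhadh was called in 2 muscle comparisons and in the interaction of genotype and diet. Each of these calls uses the same WTDR muscle value, so that they are not separate results. In muscle Ehhadh was not called between KOAL and WTAL or between KODR and KOAL. In WTDR against WTAL muscle it rose 3.19-fold (log2 1.67, SE 0.49, 95% interval 0.71 to 2.64), the only call among 31 member tests in this comparison, beside 0.603% of all entries over the 4 tissues and 1.4% in muscle. At an FDR of 5% this call was lost. In KODR against WTDR muscle it was 4.56-fold lower (log2 -2.19, SE 0.47, 95% interval -3.11 to -1.26), again the only call, among 30 member tests beside 0.99% of all entries and 2.23% in muscle. The interaction is the log2 ratio of KODR to WTDR minus the log2 ratio of KOAL to WTAL. It was -2.81 (SE 0.71, 95% interval -4.20 to -1.42). This was 1 call among 30 member tests, beside 0.245% of all entries and 0.371% in muscle. Whether the 2 muscle differences exceeded those of liver, brain and WAT was tested after the values were seen, and none was called. For WTDR against WTAL the difference of differences was 1.42 (SE 1.01) against liver, 1.17 (SE 0.86) against brain and 0.90 (SE 1.02) against WAT. For KODR against WTDR it was -2.09 (SE 0.90, 95% interval -3.84 to -0.33) against liver. It was -1.99 (SE 0.69, 95% interval -3.34 to -0.63) against brain and -1.51 (SE 1.06, 95% interval -3.59 to 0.56) against WAT.

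Markers of liver moved with the Ehhadh calls, with the exception of Cyp2e1. The 10 liver markers, among them Alb, Apoa1 and Ttr, summed to 3007 FPKM in WTDR muscle, against 52.6 in WTAL, 149 in KOAL and 268 in KODR, and none of the 10 was at 0 in any muscle group. In WTDR muscle each of them stood at 0.996% to 3.05% of its liver FPKM (median 1.77%), whereas the medians of the other muscle groups were 0.0299% in WTAL, 0.0417% in KOAL and 0.0858% in KODR. Cyp2e1 was highest in KODR muscle, at 146 FPKM, with 30.5 in WTAL, 102 in WTDR and 95.4 in KOAL. It stood at 0.888% of its liver FPKM in WTAL, 1.78% in WTDR, 1.44% in KOAL and 1.92% in KODR. Ehhadh in muscle stood at 3.57% of its liver FPKM in WTDR, 1.34% in WTAL, 1.13% in KOAL and 0.840% in KODR.

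When the median percent of the liver markers, times the liver FPKM of Ehhadh, was taken off the muscle value, a calculation chosen after the values were seen, the remainder was 9.31 FPKM in WTAL, 15.4 in WTDR, 14.1 in KOAL and 5.98 in KODR. All 3 calls were then lost. The log2 ratio became 0.72 (SE 0.72) for WTDR against WTAL and -1.36 (SE 0.72) for KODR against WTDR. For the interaction it became -1.957 (SE 0.90). The error of the liver values was left out. Each SE rose because the SD of the muscle value was kept while its level was lowered, and calls could be lost by this alone. The share used the marker median, while single markers ran from 0.996% to 3.05% in WTDR muscle.

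**Figure D2:**
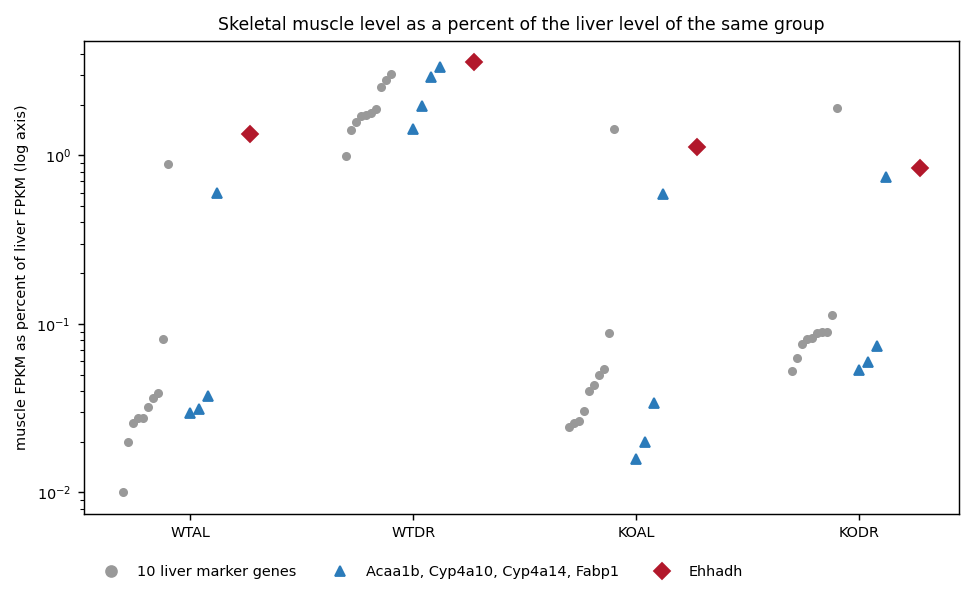
Skeletal muscle FPKM as a percent of the liver FPKM of the same group, on a log axis, for 10 liver markers (grey), 4 other genes of lipid oxidation (blue) and Ehhadh (red). In WTDR all 10 markers lie between 0.996% and 3.05% and Ehhadh at 3.57%, while in the other 3 groups the marker medians are under 0.1%. The marker Cyp2e1 lies at 0.888% in WTAL, 1.44% in KOAL and 1.92% in KODR.

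A further 4 genes of the pathway, all abundant in liver, showed the same 2 changes in muscle. Fabp1, the liver fatty acid binding protein, was at 1.47 FPKM in WTAL, 184 in WTDR, 2.04 in KOAL and 6.30 in KODR muscle. In WTDR muscle Fabp1, Acaa1b, a peroxisomal thiolase, and Cyp4a10 and Cyp4a14, which hydroxylate the far end of fatty acids, stood at 1.43% to 3.36% of their liver FPKM, beside the 0.996% to 3.05% of the liver markers. The part of liver transcripts in the differences of these 4 genes was not tested.

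Acot1, on chromosome 12 (84009502 to 84017670), encodes a cytosolic thioesterase that splits fatty acyl-CoA. Its values are uncertain, because 32.3% of the 54-base stretches of its transcript also occur in other genes, 23.0% in its neighbour Acot2. In liver the FPKM was 309 in WTAL, 151 in WTDR, 514 in KOAL and 249 in KODR, and in muscle 42.1, 19.4, 51.3 and 16.9 in the same order. In both tissues the 2 AL groups were the higher ones. KODR and KOAL muscle, with 95% intervals of 7.18 to 26.7 and 29.5 to 73.0, did not overlap, but the log2 ratio of -1.60 (SE 0.52) was not called.

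In WAT, Acot1 divided the groups by genotype as labelled. It was at 5.25 FPKM in WTAL (95% interval 2.00 to 8.50) and 6.09 in WTDR (0 to 12.9), against 17.8 in KOAL (9.55 to 26.0) and 16.02 in KODR (4.69 to 27.4). KOAL lay above WTAL without overlap, a log2 ratio of 1.76 (SE 0.56) that was not called at the FDR of 10% and was called under 5 of the 8 alternative settings. Markers of mammary epithelium divided the WAT groups the same way. The 6 on the list summed to 17.3 FPKM in WTAL, 25.7 in WTDR, 127 in KOAL and 99.2 in KODR, with the keratin gene Krt18 at 2.54, 3.61, 35.3 and 34.2 and the epithelial adhesion gene Epcam at 0.255, 0.0599, 10.8 and 5.31, while the milk protein genes Csn3 and Wfdc18 were under 1 in every group. The 10 skeletal muscle markers stood in WAT at a median 0.0227% of their muscle level in WTAL, 0.218% in WTDR, 0.983% in KOAL and 0.367% in KODR, with Acta1 the highest in WTAL at 507 FPKM. The muscle FPKM of Acot1 was at most 51.3. The part of epithelial or muscle transcripts in the WAT values of Acot1 was not tested.

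Fgf21, on chromosome 7 (45613907 to 45615490), encodes a hormone that the liver releases in fasting and in protein shortage. Its liver FPKM was 32.8 in WTAL (95% interval 10.3 to 55.2), 34.93 in WTDR (12.5 to 57.3), 96.1 in KOAL (54.9 to 137) and 18.5 in KODR (7.94 to 29.2). KOAL stood above the other 3 groups, its interval touching those of WTAL and WTDR at the edge and lying clear of that of KODR. The 2 groups labelled KO were thus the highest and the lowest.

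Between KODR and KOAL liver Fgf21 was 5.18-fold lower under DR (log2 -2.37, SE 0.52, 95% interval -3.38 to -1.36), the only call among 30 member tests in this comparison, beside 0.546% of all entries and 0.611% in liver. It was called under all 8 alternative settings. Between KOAL and WTAL liver it was 2.93-fold higher (log2 1.55, SE 0.58, 95% interval 0.41 to 2.69), which was not called. The interaction in liver was -2.47 (SE 0.85, 95% interval -4.13 to -0.80) and was not called either.

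Outside liver Fgf21 was low. WAT held an FPKM of 3.00 in WTAL, 1.17 in WTDR, 1.95 in KOAL and 2.71 in KODR, and muscle 0.276, 1.09 and 0.0953, with KODR muscle listed at 0. The WTDR muscle value, with a 95% interval from 0 to 2.22, was 3.11% of that of WTDR liver. The liver markers there stood at 0.996% to 3.05%, with a median of 1.77%. The part of liver transcripts in the muscle value of Fgf21 was not tested. Both WT groups of brain were also listed at 0. Whether the KODR against KOAL difference was larger in liver than in WAT was tested after the values were seen. The difference of differences was -2.85 on the log2 scale (SE 1.16, 95% interval -5.12 to -0.57) and was not called at the FDR of 10%.

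Of the genes that receive the hormone's signal, Klb, the co-receptor beta-klotho, was at 15.1 to 19.4 FPKM in liver and 16.3 to 26.3 in WAT, and Fgfr1, its receptor, at 0.972 to 1.80 in liver and 29.6 to 55.6 in WAT. Neither was called in any comparison. The single gene whose variation within tissues was most like that of Fgf21 was Gdf15, another stress-induced hormone (Pearson r = 0.903 over the 16 groups, on log2(FPKM + 1) less the tissue mean, highest of 20227 entries searched). The liver groups weigh most in this r. Fgf21 ranged there from 18.5 to 96.1 FPKM and reached at most 0.0443 in brain, 1.09 in muscle and 3.00 in WAT.

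Pdk4, on chromosome 6 (5483351 to 5496309), was the most abundant member in muscle. Its FPKM there was 1526 in WTAL, 335 in WTDR, 1043 in KOAL and 248 in KODR, and in WAT 130, 19.2, 86.3 and 35.9 in the same order. In both tissues the 2 DR groups held the lowest values. The lower bound was 0 in all of these groups, and the ratio between WTDR and WTAL muscle, a log2 of -2.19 (SE 1.68), had an interval from -5.48 to 1.10. Markers of slow muscle fibres, 6 in number, summed to 759 FPKM in WTAL, 338 in WTDR, 1165 in KOAL and 1104 in KODR muscle, so that they were low in WTDR and not in KODR.

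In liver Pdk4 followed another order. It was at 6.78 FPKM in WTAL (95% interval 1.72 to 11.8), 11.3 in WTDR (0 to 22.7), 9.30 in KOAL (0.705 to 17.9) and 1.39 in KODR (0.276 to 2.49). KODR was the lowest of the 4, and its interval overlapped those of the other 3. It was 8.17-fold lower than WTDR (log2 -3.03, SE 0.93) and 6.72-fold lower than KOAL (log2 -2.75, SE 0.88), and neither difference was called.

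The variation of Pdk4 within tissues was most like that of AB124611 (r = 0.935), Arntl (r = 0.921) and Mpeg1 (r = 0.906) over the 16 groups, whose values for all genes come from the same libraries. AB124611 and Mpeg1 are expressed by macrophages, and 6 macrophage markers summed to 203, 108, 226 and 122 FPKM in WTAL, WTDR, KOAL and KODR liver, 112, 76.6, 130 and 53.7 in muscle and 771, 280, 418 and 350 in WAT. These sums were lower in the 2 DR groups than in the 2 AL groups of liver, muscle and WAT, as Pdk4 was in muscle and WAT but not in liver. In brain the sums were 110, 99.4, 78.4 and 70.0, so that WTDR was above KOAL. The marker Cd14 was highest in KODR muscle, at 5.59 FPKM. It was also higher in KODR than in WTAL liver (5.82 and 5.15) and WAT (12.7 and 11.5). KODR was above KOAL for Cd68 in liver (9.71 and 9.32) and C1qa in WAT (114.7 and 114.4). The part of macrophage transcripts in the values of Pdk4 was not tested. Arntl encodes the clock protein BMAL1. Its muscle FPKM was 9.07 in WTAL, 3.05 in WTDR, 7.28 in KOAL and 2.30 in KODR, and its liver FPKM 2.00, 1.82, 2.94 and 0.251. Dbp, a clock output gene read after these values were seen, ran the other way in liver, at 74.7, 147, 15.7 and 263 FPKM. It was also higher in the 2 DR groups of muscle, at 26.7, 125, 25.8 and 122, and of WAT, at 14.1, 101, 20.5 and 81.6. The clock gene Nr1d1 did not divide the liver or muscle groups by diet. It was at 112, 108, 90.7 and 123 FPKM in liver and 65.9, 77.8, 92.3 and 96.4 in muscle. Per2, another clock gene, was at 4.31, 3.54, 3.04 and 13.9 in liver and 2.39, 4.15, 2.29 and 2.92 in muscle. None of these clock genes was called in any diet or genotype comparison of any tissue. Diet groups were fed on different schedules, and time of day and diet cannot be told apart here.

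**Figure D3:**
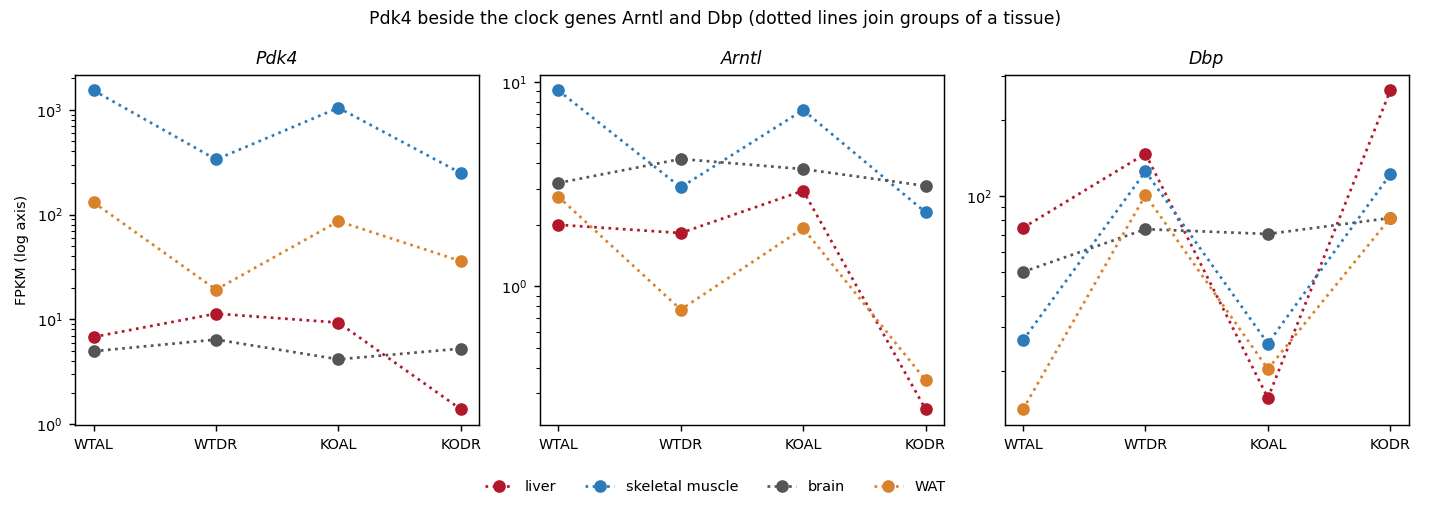
FPKM on a log axis of Pdk4 and of the clock genes Arntl and Dbp in the 4 groups of each tissue. Points are the authors' group values without their intervals, and dotted lines join the groups of a tissue for reading only. Pdk4 and Arntl are both lower in the 2 DR groups of muscle and WAT and lowest in KODR liver. The clock genes Nr1d1 and Per2 are not drawn.

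Angptl4, on chromosome 17 (33773750 to 33781575), encodes a secreted inhibitor of lipoprotein lipase. WAT held the highest single value, 413 FPKM in WTAL, with 155 in WTDR, 248 in KOAL and 227 in KODR. In liver it was 186, 126, 262 and 130 in the same order, and in muscle 43.9, 13.3, 49.8 and 28.1. In brain it was 4.38, 2.16, 4.81 and 1.92. The 2 DR groups were below the 2 AL groups in all 4 tissues, with intervals that overlapped.

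The muscle ratio between WTDR and WTAL was -1.73 on the log2 scale (SE 0.73, 95% interval -3.16 to -0.30) and was not called. Fat cell markers moved with it: 8 adipocyte markers summed to 1861 FPKM in WTAL, 631 in WTDR, 2077 in KOAL and 2807 in KODR muscle, none at 0, and stood there at a median 7.01%, 2.34%, 9.86% and 8.40% of their WAT level. Lpl, the lipase itself, was at 252, 88.4, 289 and 202 FPKM in the same muscle groups. The part of fat cell transcripts in the muscle values of Angptl4 and Pdk4 was not tested. In bulk tissue, fewer cells of a type and less RNA per cell cannot be told apart.

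**Figure D4:**
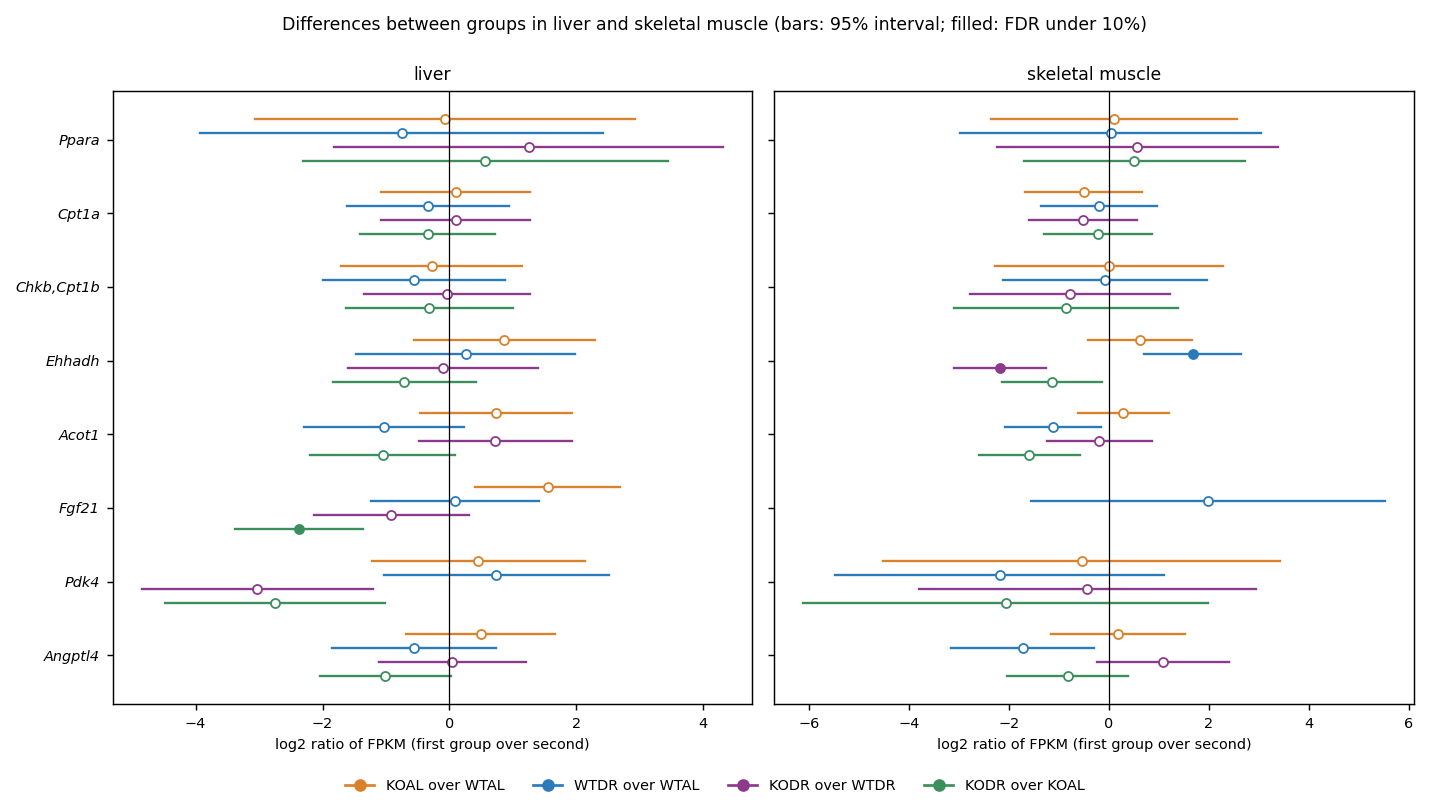
Log2 ratios of FPKM of the 8 genes between groups of liver (left) and skeletal muscle (right); the 2 panels have their own scales. Points are ratios, bars 95% intervals, and filled points passed an FDR of 10%: Fgf21 in liver for KODR over KOAL, and Ehhadh in muscle for WTDR over WTAL and KODR over WTDR. Muscle Fgf21 is drawn only where it was tested.

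Set against the design, 150 member tests of diet or genotype could be made and 3 passed the FDR of 10%, with 1 more among the 30 interaction tests. No member was called between KOAL and WTAL among 29 tests, where 0.631% of all entries were called, or between KODR and WTAL among 30, beside 0.633%; 2 and 3 of these tests had an unadjusted p under 0.05. The comparisons of KOAL, WTDR and KODR with WTAL share the WTAL group. Those of KOAL with WTAL and of KODR with KOAL share the KOAL group, with opposite sign. The Ehhadh calls, the interaction included, all use the WTDR muscle group. In liver the median log2 ratio of the members was 0.47 for KOAL against WTAL beside 0.16 over all entries, with 6 of 8 above 0 (5 of 8 above the median of all entries). For KODR against KOAL it was -0.86 beside -0.03, with 7 of 8 below 0 and Ppara the exception. In WAT the median for WTDR against WTAL was -1.04 beside -0.17, with 5 of 8 below 0 and 0 with an unadjusted p under 0.05. WTDR WAT, with 2 libraries, was the least precise group, its SD a median 62.3% of the FPKM over all entries with an FPKM of at least 1.

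Among 93 further genes of ketone body synthesis, mitochondrial, peroxisomal and omega-oxidation, fatty acid uptake, PPAR alpha partners and targets, pyruvate dehydrogenase control and lipoprotein lipase control, 87 were tested in liver. Of these, 0 were called between KOAL and WTAL, between WTDR and WTAL, and between KODR and KOAL, by the Wald test, beside 0.316%, 0.236% and 0.611% of all liver entries. In the same order 5, 6 and 7 of them had an unadjusted p under 0.05, which is 5.75%, 6.90% and 8.05%, beside 2.03%, 2.91% and 2.87% of all entries. Median log2 ratios over these genes were 0.25, -0.24 and -0.18, beside 0.16, 0.03 and -0.03 for all entries. The 5 tested omega-oxidation genes had a median of 1.49 for KOAL against WTAL and -0.66 for KODR against KOAL, which share the KOAL group with opposite sign. Among them Cyp4a10 was at 763 FPKM in WTAL, 703 in WTDR, 2267 in KOAL and 1319 in KODR liver. In muscle 5 of 89 rose between WTAL and WTDR, beside 0.795% of all entries. In KODR 5 of 88 were lower and 2 higher than in WTDR, beside 1.35% and 0.884%. In each case 4 of the 5 were the liver-abundant genes above, and the other was Pdp2.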

How the data were processed

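The authors trimmed Ion Proton reads with cutadapt 1.5 and sickle, mapped them to GRCm38 with BBmap and estimated FPKM per gene and group with Cuffdiff 2.2.1 (versions from the submitters' processing notes), with multi-read correction and geometric library scaling. The deposited table of FPKM with 95% interval bounds was used as given. Replicates are pooled in it, so p-values rest on the spread that Cuffdiff modelled. The SD of a value was taken as the upper bound less the FPKM, divided by 2. Log2 ratios were tested with a two-sided Wald test (SE by the delta method, normal reference), Benjamini-Hochberg adjusted over all entries tested separately for each comparison in each tissue. An entry entered a test when its status was OK and FPKM above 0 in every group and at least 1 in any of them. Members, gene lists and tests were chosen with earlier results of these data known. Named genes were the members, Irs1, list genes past an FDR of 10%, marker genes that moved with a result, and entries among the 3 most like each member. Klb, Fgfr1, Lpl, Dbp, Nr1d1, Per2 and Cyp2e1 were named outside this rule, after their values were seen. Alternatives were a pseudocount, other FPKM minimums, a smaller SD, interval overlap, centring, leaving out joined entries, and an FDR of 5%. 1 gene of the lists is not reported here and is left out of their counts. The code was tested on simulated data. Transcript overlaps used GENCODE M21 and promoters used RefSeq. Python 3.11.15 with numpy 2.4.6, pandas 2.3.3 and scipy 1.17.1 was used.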

Additional observations from a re-analysis of the deposited data

Results flagged for a closer look

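In muscle the difference between the labelled genotypes depended on diet for 1 of the 7 members tested and 1 of 88 tested genes of the pathway lists, by the test of that dependence itself, beside 0.371% of all entries. For Ehhadh the log2 ratio of KODR to WTDR minus that of KOAL to WTAL was -2.81 (SE 0.71), called at the FDR of 10%. The liver markers described beside it, apart from Cyp2e1, moved with the same WTDR group. With the liver share taken off, which also raised the SE, the Ehhadh value was -1.957 (SE 0.90) and no longer called. For Pdp2, a phosphatase that switches pyruvate dehydrogenase back on, the same difference was -1.22 (SE 0.14), also called. That call rests on narrow intervals modelled from 2 or 3 libraries per group. In WTDR against WTAL muscle the SE was 0.093 for Pdp2, beside 0.49 for Ehhadh. Pdp2 was at 2.03 FPKM in WTAL, 2.70 in WTDR, 3.91 in KOAL and 2.23 in KODR muscle, so that it was higher in KOAL than in WTAL and lower in KODR than in WTDR.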

How the results depend on the processing

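Counts of members called as reported were 0 (KOAL against WTAL), 1 (WTDR against WTAL), 1 (KODR against WTDR), 1 (KODR against KOAL), 0 (KODR against WTAL), 1 (interaction) and 33 (tissue pairs in WTAL). With the SD divided by the square root of the number of libraries they became 2, 3, 3, 6, 3 and 3 for the first 6, in that order, 20 calls in place of 4, while the share of all entries called went from 0.606% to 4.63%. Calls added in that setting include Pdk4 in KODR liver and Acot1 in muscle and WAT. For KOAL against WTAL the count was 1, Acot1 in WAT, with a pseudocount of 1, a minimum FPKM of 5, intervals that do not overlap, or centring on the median of all entries. Intervals that do not overlap gave 2 for KODR against KOAL and 21 for the tissue pairs. An FDR of 5% gave 0 for WTDR against WTAL. The other 42 counts stayed within 1.5 times. Fgf21 in liver and the Ehhadh muscle call of KODR against WTDR passed under every planned setting. The Ehhadh interaction passed under every setting that was run for it, and interval overlap was not. The Ehhadh muscle call of WTDR against WTAL passed under all but the FDR of 5%. The 3 Ehhadh calls were lost when the liver share was taken off, as given above, a setting chosen after the values were seen. All entries shifted by a median log2 of over 0.1 in liver (KOAL against WTAL, 0.16, and KODR against WTAL, 0.12), in brain (KOAL against WTAL, 0.13, KODR against WTDR, 0.23, and KODR against WTAL, 0.15) and in WAT (WTDR against WTAL, -0.17, and the interaction, 0.13). No paired analysis was possible because the table holds 1 value per group and no value per library, and for the same reason no library could be left out.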

Other observations

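Beyond the members, 2 regulators of fat metabolism differed between the DR groups at an FDR of 10%. Lpin1, which encodes a phosphatidate phosphatase and partner of PPAR alpha, was at 8.94 FPKM in WTDR and 48.9 in KODR liver (log2 2.45, SE 0.48) and at 42.6 and 76.0 in muscle (log2 0.84, SE 0.15). Pparg, the receptor that drives fat cell formation, was at 4.22 FPKM in WTDR and 21.3 in KODR muscle (log2 2.34, SE 0.65), where the 8 adipocyte markers summed to 631 and 2807 FPKM. The part of fat cell transcripts in that difference was not tested.

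In WAT, Pdp2 rose from 0.886 FPKM in WTAL to 2.53 in WTDR, 1.74 in KOAL and 2.24 in KODR, and each difference from WTAL passed the FDR of 10% (log2 1.51, SE 0.26, for WTDR, 0.98, SE 0.26, for KOAL and 1.34, SE 0.25, for KODR). These differences share the WTAL value, which was under 1 FPKM and was modelled from 2 libraries, so that they are not separate results. Vnn1, a PPAR alpha target that makes pantothenic acid, fell from 16.1 in WTAL to 4.74 in KOAL (log2 -1.76, SE 0.54). Fabp1 was at 43.9 FPKM in WTAL, 56.7 in KOAL and 5.18 in KODR, and Cyp4a10 at 4.37 in WTAL and 0.213 in KODR. Both were lower in KODR than in WTAL (log2 -3.08, SE 0.94, and -4.36, SE 1.26), and the 10 liver markers stood in WAT at a median 1.05% of their liver FPKM in WTAL, 0.340% in WTDR, 0.621% in KOAL and 0.0640% in KODR. The part of liver transcripts in these WAT differences was not tested.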
